A study of Danio rerio with 7 samples.

Results

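The chemokine genes cxcl12a, cxcl12b, cxcl14, cxcr4a, cxcr4b and ackr3b were followed through migrating cranial neural crest (NC) cells and the tissues sorted with them. They were taken by symbol, and all 6 were listed in both count tables, which together hold 19648 gene names, 16600 of them in both tables. The cells came from zebrafish embryos of the AB strain with the transgene Tg(sox10:nEOS)w18, in which a nuclear photoconvertible protein is made under sox10 control. Every group carried this transgene, and none was otherwise treated. Cells in the stream that fills the first pharyngeal arch were converted to red, dissociated and sorted, and droplet libraries were made at 12, 14, 18, 20, 24 and 30 hours post-fertilisation (hpf) with 10x chemistry version 2. A further 18 hpf library was made with version 3 and is named the second 18 hpf library here. With 1 library per group, age, library and, for the second 18 hpf library, chemistry cannot be told apart. Groups of cells were therefore compared within libraries. The p-values rest on these libraries only, and each gene's variance is drawn towards that of all genes tested. They are thus not a measure of a single gene's own spread between libraries.

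Chemokines are small secreted proteins that steer migrating cells through receptors with 7 membrane spans. Cxcl12 is the ligand of Cxcr4, which couples to inhibitory G proteins and drives directed migration. Ackr3, the atypical receptor, binds the same ligand without that coupling and takes it up, so that it can shape the gradient. Zebrafish keep a pair of copies of the cxcl12, cxcr4 and ackr3 genes. In zebrafish, Cxcl12a with Cxcr4b is best known from germ cells and the lateral line, and Cxcr4a from vessels and endoderm. Cxcl14 is a separate chemokine of epithelia whose receptor is less settled.

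The libraries held 238, 354, 248, 516, 388 and 131 cells at 12, 14, 18, 20, 24 and 30 hpf and 979 cells in the second 18 hpf library. The median cell had between 10807.5 and 14655 unique molecular identifiers (UMIs, each 1 captured transcript) in the libraries of 12, 14, 18, 24 and 30 hpf, 19222 at 20 hpf and 23038 in the second 18 hpf library. Clusters were built without the chemokine genes and called "X-like" from marker lists. Of the 16 NC markers, 12 to 16 were detected in the NC-like cells of each library. Detected means at least 1 UMI over the summed cells, and the classes were named from these same lists. The count is thus no separate support for the name. By this measure 6 to 12 epithelial markers were also detected in NC-like cells. Epithelial-like cells also carried sox10 transcripts, the gene behind the sort, at 372 to 3772 CPM (counts scaled to a common total over the summed cells of a class), against 123 to 2731 CPM in NC-like cells. Of the 16 NC markers, 4 (14 hpf) to 14 (second 18 hpf library) were detected in epithelial-like cells. Their foxd3 stood at 0 in all 6 libraries with at least 10 such cells, against 41.1 to 683 CPM in NC-like cells. Their crestin stood at 0 in 5 of these libraries. It was low in NC-like cells too (3.22 to 24.6 CPM), so a 0 of crestin tells little. Head mesoderm-like cells carried sox10 too, at 90.7 to 1749 CPM. The NC markers summed to 909 to 2643 CPM in head mesoderm-like cells, against 1874 to 3303 CPM in NC-like cells of the same libraries. Head mesoderm marker tbx1 stood at 146 to 319 CPM in head mesoderm-like cells and at 0 in NC-like cells. A cluster of 106 cells in the second 18 hpf library was kept apart, unnamed. It had 13 of 13 epithelial and 8 of 11 endoderm markers detected, the same counts as the epithelial-like cells of that library. Its endoderm markers summed to 1224 CPM, against 485 CPM in those epithelial-like cells. Its epithelial markers summed to 2944 CPM, against 8195 CPM. Its sox10 stood at 6391 CPM. Of the barcodes, 1 was shared between libraries (12 and 14 hpf).

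Each of the 6 genes had its own pattern over the tissues. Ligand cxcl12a peaked in head mesoderm-like cells, cxcl12b in epithelial-like cells, receptor cxcr4b in blood-like cells, and ackr3b in epithelial-like and endothelial-like cells. Endoderm markers were also detected in epithelial-like cells, 4 to 9 of them per library, summing to 105 to 610 CPM. Their part in the cxcl12b and ackr3b levels was not tested. NC-like cells held most of the cxcr4a UMIs from 20 hpf on and most of the cxcl14 UMIs at 5 of the 6 timeline ages. They were also most of the cells at every timeline age. NC-like cells were lower than all other cells of the same libraries for 4 of the 6 genes, at a background of 32% of 7517 genes passing, with 15.7% higher and 16.3% lower. The fitted log2 differences were -4.28 for cxcl12a (SE 0.581, adjusted p = 0.0019), -3.23 for cxcl12b (SE 0.605, adjusted p = 0.00745), -3.07 for cxcr4b (SE 0.478, adjusted p = 0.00244) and -5.00 for ackr3b (SE 0.385, adjusted p = 3.93e-05). Each of these held its direction in 7 of 7 libraries. These are edgeR quasi-likelihood tests on counts summed per library with Benjamini-Hochberg adjustment over all genes tested, as are all those that follow. The call on cxcl12b was lost without the library term (adjusted p = 0.0906). For cxcl14 (0.74) and cxcr4a (0.10) the adjusted p was 0.358 and 0.933.

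**Figure D1:**
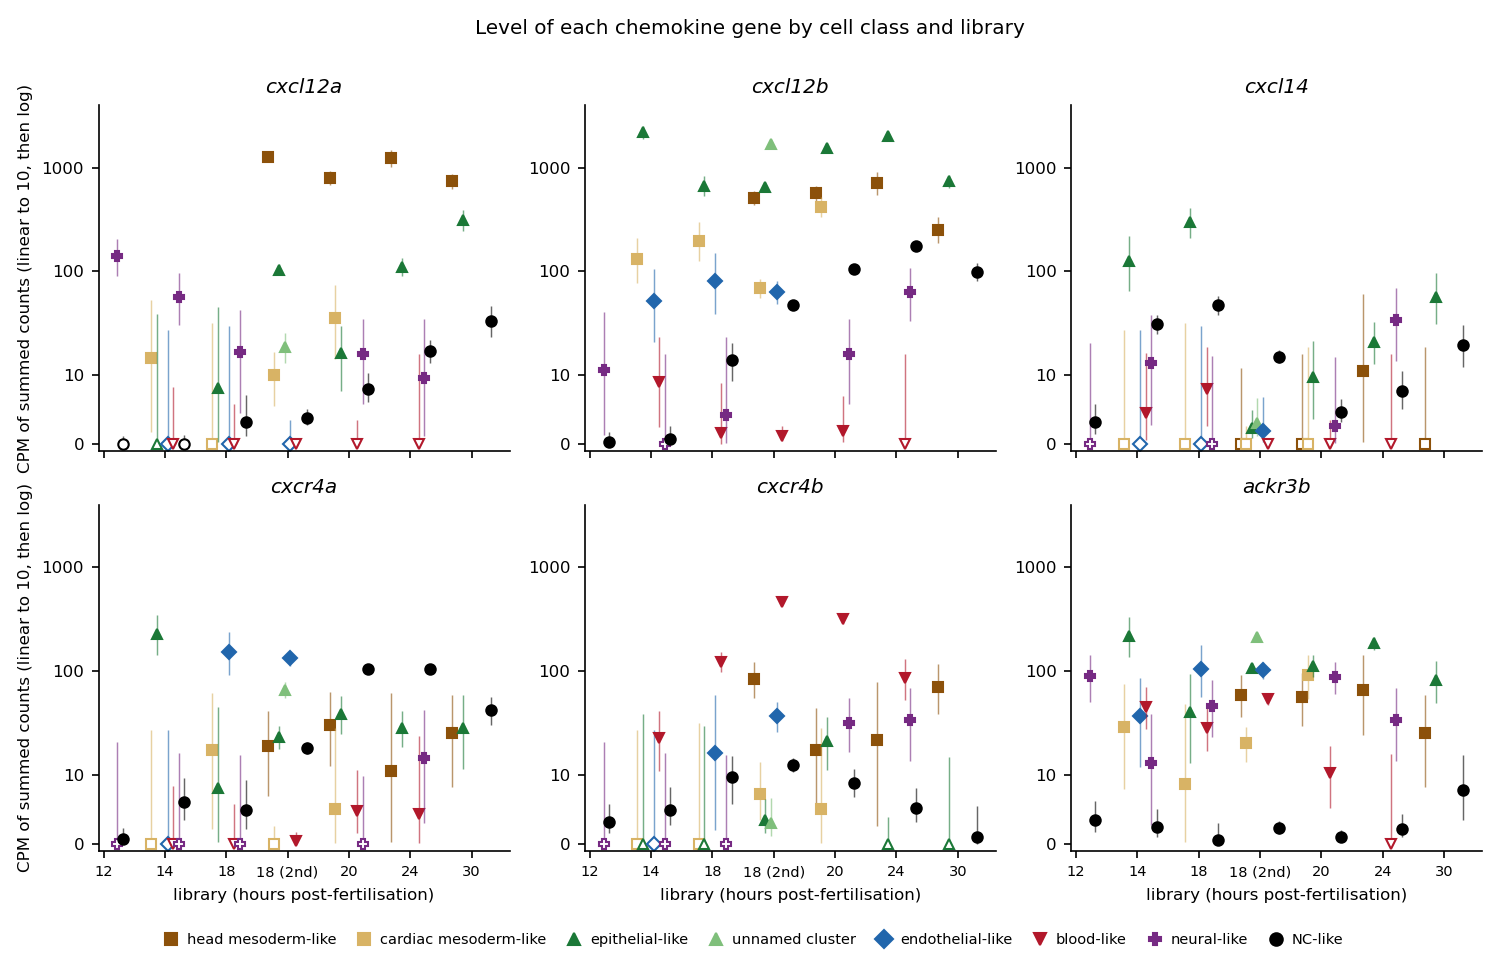
Level of each gene in each cell class, in CPM of the summed counts (vertical axis linear up to 10 and logarithmic above), for the 7 libraries along the horizontal axis. Bars are exact 95% Poisson intervals, open symbols mark a count of 0, and classes under 10 cells are left out. Head mesoderm-like cells stand at 740.5 to 1278 CPM of cxcl12a and blood-like cells at 22.5 to 462 CPM of cxcr4b.

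The first ligand, cxcl12a, marked head mesoderm. Its level in head mesoderm-like cells was 1278 CPM (95% interval 1157 to 1408) in the second 18 hpf library, 797 CPM at 20 hpf, 1232 CPM at 24 hpf and 740.5 CPM at 30 hpf. In the same libraries NC-like cells had 3.78, 7.97, 16.8 and 33.3 CPM. The ranges did not overlap, and the NC level was higher in the later libraries. Nearly every head mesoderm-like cell held the transcript, 14 of 16, 12 of 15, 9 of 10 and 18 of 18. The 163 blood-like cells of the second 18 hpf library had none, which at the floor of 3 counts allows a share of cells with a UMI of up to 1.84% (median 26933 UMIs per blood-like and 20497 per head mesoderm-like cell). All 5 libraries with blood-like cells and all 3 with endothelial-like cells stood at 0 for cxcl12a. The endothelial floors were 21.9 CPM at 14 hpf, 24.2 CPM at 18 hpf and 2.82 CPM in the second 18 hpf library. At 14 and 18 hpf the floor lay above the NC level, so these zeros give no order there. Intervals, floors and upper limits cover counting error only.

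Cardiac mesoderm-like cells had little cxcl12a, at 14.6, 0, 10.0 and 35.5 CPM in the 14 hpf, 18 hpf, second 18 hpf and 20 hpf libraries. The ligand thus separated the mesoderm clusters from each other. At 12 hpf, before head mesoderm-like cells were present in number, 92.6% of 27 UMIs sat in 13 neural-like cells, at 139 CPM. Neural-like cells of later libraries had 56.5 CPM at 14 hpf and 9.59 to 16.7 CPM from 18 to 24 hpf. NC-like cells had no cxcl12a UMI at 12 and 14 hpf (floors 0.934 and 1.05 CPM).

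With head and cardiac clusters merged, mesoderm-like cells had 288, 889.8, 246, 448, 857 and 740.5 CPM of cxcl12a at 14 hpf, 18 hpf, in the second 18 hpf library and at 20, 24 and 30 hpf, against 0, 3.22, 3.78, 7.97, 16.8 and 33.3 CPM in NC-like cells. The fitted difference was 6.14 on the log2 scale (SE 0.687, adjusted p = 0.00359), higher in 6 of 6 libraries. Of the 6 genes tested, 2 were higher and 1 lower in mesoderm-like cells, where 21.2% of 6381 genes passed, 10.2% higher and 11% lower. The other gene that was higher was ackr3b, at 4.01 (SE 0.498, adjusted p = 5.87e-05) in 6 of 6 libraries. Ligand cxcl12b had 376, 443, 151, 496.5, 609 and 252 CPM in mesoderm-like cells, against 0.703, 13.9, 47.3, 105, 177 and 98.9 CPM in NC-like cells, higher in every one of these libraries. Its difference of 2.87 missed the threshold (adjusted p = 0.105), and passed without the 14 hpf library (2.3, adjusted p = 0.0422), with head mesoderm-like cells alone (2.39, adjusted p = 0.0240) and with DESeq2 (adjusted p = 0.0059). The call on cxcl12a was lost with head mesoderm-like cells alone (6.57, adjusted p = 0.0522) and at the coarser clustering (adjusted p = 0.0774).

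In epithelial-like cells the other copy, cxcl12b, was the more abundant, whereas cxcl12a was so in head mesoderm-like cells, which held both. Cardiac mesoderm-like cells also had more cxcl12b (68.6 to 416 CPM) than cxcl12a (0 to 35.5 CPM). Epithelial-like cells had 2192, 662, 649.5, 1543, 2024 and 739 CPM of cxcl12b at 14 hpf, 18 hpf, in the second 18 hpf library and at 20, 24 and 30 hpf. NC-like cells of the same libraries had 0.703, 13.9, 47.3, 105, 177 and 98.9 CPM. All 6 epithelial values exceeded every NC value, and the unnamed cluster of the second 18 hpf library added 1708 CPM, in 105 of its 106 cells. Over the libraries, the epithelial range (649.5 to 2192 CPM) overlapped that of head mesoderm-like cells (252 to 709 CPM), whereas the next class down, cardiac mesoderm-like cells (68.6 to 416 CPM), overlapped head mesoderm in turn. In the second 18 hpf library 91.2% of 114 epithelial-like cells held the transcript, against 2.45% of 163 blood-like cells (median 21592.5 and 26933 UMIs). The fitted difference from NC-like cells was 4.55 (SE 0.954, adjusted p = 0.0176), higher in 6 of 6 libraries.

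Epithelial-like cells were also higher in cxcl12a, by 3.21 on the log2 scale (SE 0.603, adjusted p = 0.00958, 5 of 6 libraries). Their own levels spread widely, at 0 and 8.07 CPM in the 14 and 18 hpf libraries, 103 CPM in the second 18 hpf library and 16.1, 109.5 and 313 CPM in those of 20, 24 and 30 hpf. In the second 18 hpf library all 272 UMIs lay in 16 cells of a single cluster led by krt4 and cyt1, at 185 CPM, while the other epithelial-like cluster had none. The atypical receptor ackr3b was higher too, by 5.96 (SE 0.356, adjusted p = 1.31e-08, 6 of 6 libraries). In all 3 of 5 genes tested were higher and none lower, where 34% of 6588 genes passed, 17.7% higher and 16.3% lower. The cxcl12a call was lost without the 30 hpf library (adjusted p = 0.0538) and the cxcl12b call without the 18 hpf (0.0516), second 18 hpf (0.0566) or 20 hpf library (0.0599). Of the head mesoderm markers, tbx1 stood at 24.2 to 83.5 CPM in epithelial-like cells, and tcf21 at 0 in 5 of 6 libraries and at 0.380 CPM in the second 18 hpf library. Marker foxc1b stood at 0 at 14 and 18 hpf, 2.66 CPM in the second 18 hpf library, and 4.83 and 23.0 CPM at 20 and 24 hpf. At 30 hpf it reached 105.6 CPM, against 100.7 CPM in the head mesoderm-like cells of that library. Their part in the ligand levels was not tested.

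The third ligand was cxcl14. Between 49.1% and 92.9% of its UMIs lay in NC-like cells in the 6 libraries from 14 to 30 hpf, and all 10 UMIs did at 12 hpf. These cells were 42.9% to 92.9% of the cells of a library, and at 24 hpf their share of cells (67.5%) exceeded their share of cxcl14 UMIs (49.1%). NC-like levels were 3.11, 30.9, 46.7, 4.62, 7.60 and 19.6 CPM at 12, 14, 18, 20, 24 and 30 hpf and 15.0 CPM in the second 18 hpf library. Mesoderm-like cells stood at 0 in 5 of 6 libraries and at 15.0 CPM, from 2 UMIs, at 24 hpf. Their fitted difference from NC-like cells was -4.24 (SE 0.896, adjusted p = 0.00506). It is no bound, since most mesoderm values were 0, and the gene fell below the count filter without the second 18 hpf or the 24 hpf library. Endothelial-like cells had 0, 0 and 1.88 CPM in their 3 libraries.

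Epithelial cxcl14 came from few cells in 4 of the 6 libraries. The levels of 125, 299, 20.9 and 56.9 CPM in the 14, 18, 24 and 30 hpf libraries came from 12 UMIs in 1 of 12 cells, 37 UMIs in 3 of 12, 20 UMIs in 1 of 75 and 14 UMIs in 1 of 22. In the second 18 hpf and 20 hpf libraries the epithelial level was 2.28 and 9.67 CPM. Epithelial-like cells were above NC-like cells in 5 of 6 libraries, and the difference was 1.23 with an adjusted p of 0.25, and it passed without the second 18 hpf library (1.98, adjusted p = 3.19e-05).

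**Figure D2:**
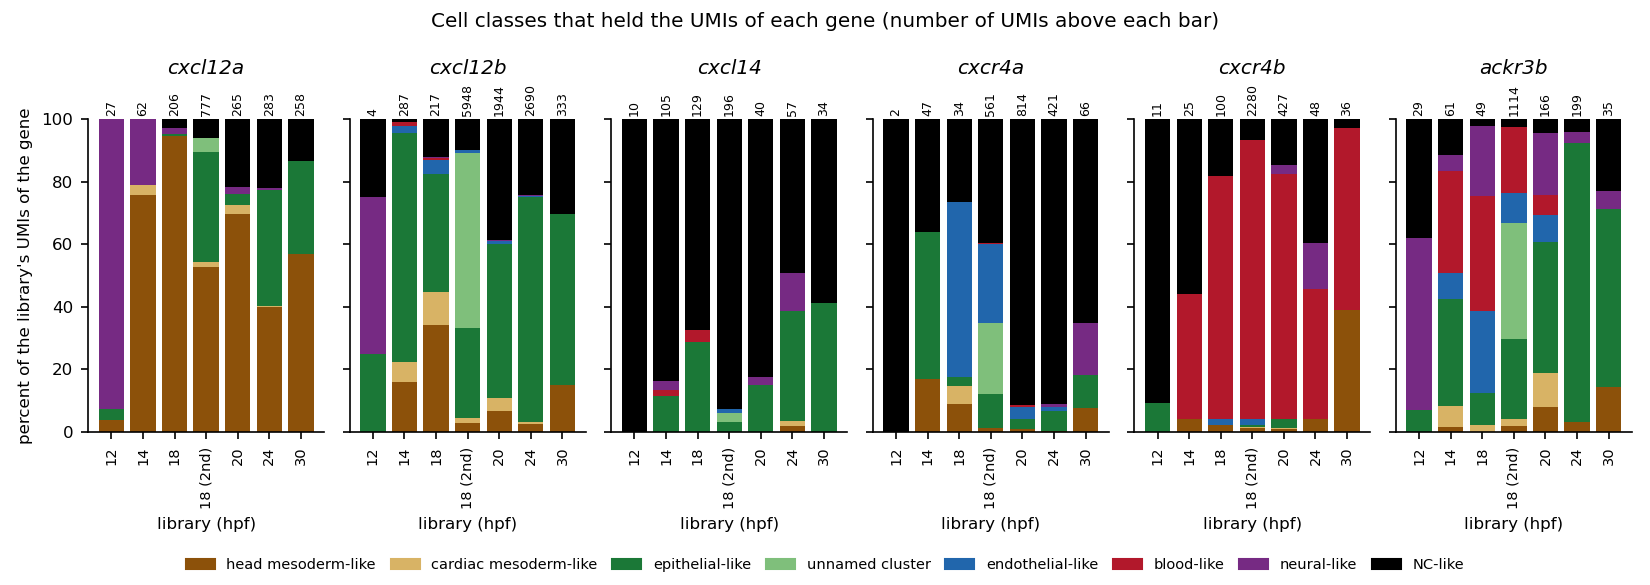
Share of the UMIs of each gene held by each cell class (percent, stacked), for each library, with the number of UMIs above the bar. Head mesoderm-like cells hold 39.9% to 94.7% of cxcl12a from 14 hpf on, and NC-like cells hold 91.5% of cxcr4a at 20 hpf, where they are 68.4% of the cells.

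Small groups of cells carried much of the ligand. At 18 hpf 8 head mesoderm-like cells, 3.23% of that library, held 94.7% of its cxcl12a UMIs. In the 14 hpf, second 18 hpf, 20 hpf, 24 hpf and 30 hpf libraries the share was 75.8%, 52.6%, 69.8%, 39.9% and 57.0%, from between 0.847% and 13.7% of the cells. Epithelial-like cells held most of the rest of cxcl12a in the second 18 hpf library (35.0%), at 24 hpf (37.1%) and at 30 hpf (29.8%). For cxcl12b they held 73.2%, 37.8%, 49.3%, 72.1% and 54.7% in the 14, 18, 20, 24 and 30 hpf libraries, and 28.7% in the second 18 hpf library, where the unnamed cluster held 56.0%. NC-like cells, low per cell but many, held 38.5%, 24.2% and 30.3% of cxcl12b at 20, 24 and 30 hpf.

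On the receptor side, cxcr4a lay in several classes up to 18 hpf and mostly in NC-like cells from 20 hpf on, where endothelial-like cells were too few (8, 4 and 0 at 20, 24 and 30 hpf) to give a level. In endothelial-like cells it stood at 0 CPM at 14 hpf (0 of 15 cells, which at the floor of 3 counts allows a UMI in up to 20.0% of cells), 153 CPM at 18 hpf and 133 CPM in the second 18 hpf library, in 6 of 14 and 15 of 64 cells. NC-like cells of those libraries had 5.98, 4.83 and 18.2 CPM. Endothelium therefore lay above the NC in both 18 hpf libraries. At 14 hpf the endothelial floor of 21.9 CPM lay above the NC level, so the order there cannot be read. At 20 and 24 hpf the NC-like level was 104 CPM in both, and 42.1 CPM at 30 hpf. NC-like cells held 91.5%, 91.2% and 65.2% of all cxcr4a UMIs at these ages, and were 68.4%, 67.5% and 59.5% of the cells. At 30 hpf the share of UMIs was thus near the share of cells. In epithelial-like cells cxcr4a was at 229.6 CPM at 14 hpf, in 8 of 12 cells, and between 8.07 and 38.7 CPM in the 5 other libraries. The epithelial markers summed to 2975 CPM in these cells at 14 hpf and to 8195 to 15873 CPM in the 5 others. Endoderm markers summed to 564 CPM at 14 hpf and to 105 to 610 CPM in the 5 others. The part of either in the cxcr4a level was not tested. The 20 hpf share of NC-like cells with a cxcr4a UMI was 53.0%, against 4.08% of blood-like cells (median 20328 and 21162 UMIs). After thinning every cell to 5000 UMIs these shares were 32.9% and 2.04%.

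Between endothelial-like and NC-like cells cxcr4a differed by 3.04 on the log2 scale (SE 0.694, adjusted p = 0.015), higher in 2 of 3 libraries. Receptor ackr3b was higher by 5.36 (SE 0.473, adjusted p = 9.15e-10) in 3 of 3 libraries, and cxcl14 was lower by a fitted -3.76 (SE 0.729, adjusted p = 0.000254), which is no bound since 2 of the 3 endothelial values were 0. Thus 2 of 5 genes tested were higher and 1 lower, where 27.7% of 7146 genes passed, 14.5% higher and 13.3% lower. The cxcr4a call was lost at the finer clustering (2.63, adjusted p = 0.189), and without the second 18 hpf library the gene fell below the count filter. Ligand cxcl12b, at 51.1, 80.7 and 62.9 CPM in endothelial-like cells, differed by 1.67 with an adjusted p of 0.323. It passed without the second 18 hpf library (3.54, adjusted p = 0.000351), with DESeq2 (adjusted p = 0.0242) and without a count filter (adjusted p = 0.0104). Receptor cxcr4b (1.19, adjusted p = 0.0781) passed without the 14 hpf library (adjusted p = 0.00743).

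Receptor cxcr4b was highest in blood-like cells, a class that pools erythroid-like and myeloid-like clusters. Blood-like cells had 22.5, 123, 462, 319 and 85.5 CPM at 14 hpf, 18 hpf, in the second 18 hpf library and at 20 and 24 hpf. NC-like cells had 4.92, 9.66, 12.4, 8.81 and 5.16 CPM there, so blood lay above NC in all 5. In the second 18 hpf library 88.3% of 163 blood-like cells held the transcript, against 6.14% of 114 epithelial-like cells (median 26933 and 21592.5 UMIs). Both blood-like clusters of that library had it, at 519 and 417 CPM, and both were myeloid-like. Erythroid markers summed to 536 CPM in the blood-like cells of that library and to 58328 CPM in those at 24 hpf. At 14 hpf they summed to 477 CPM, and the myeloid markers to 2111 CPM. At the finer clustering a cluster of 49 cells led by spi1b and cebpa, 46 of them from 14 hpf, was named endothelial-like. Blood was set against NC only after these values were seen. The difference was 4.48 (SE 0.472, adjusted p = 0.000257), and it passed under every alternative run. Copy cxcr4a was the reverse, at 0, 0, 0.453, 4.77 and 4.27 CPM in blood-like cells, with a fitted difference of -4.60 (SE 0.373, adjusted p = 1.11e-05) in 5 of 5 libraries. Ligands cxcl14 (-3.85, SE 0.634, adjusted p = 0.00109, 5 of 5 libraries) and cxcl12b (-4.47, SE 1.11, adjusted p = 0.0214, 4 of 5 libraries) were lower too. So 1 of 4 genes tested was higher and 3 lower, where 39.4% of 7705 genes passed, 18.9% higher and 20.4% lower. The cxcl12b call was lost without the 18 hpf (adjusted p = 0.0591), second 18 hpf (0.145) or 20 hpf library (0.126) and without a count filter (0.0643). Without the second 18 hpf library cxcr4a fell below the count filter.

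Head mesoderm-like cells also held cxcr4b, at 84.3, 17.2, 21.8 and 70.5 CPM in the second 18 hpf library and at 20, 24 and 30 hpf. Over libraries their range overlapped those of blood-like cells above and endothelial-like cells below (0, 16.1 and 36.6 CPM). Neural-like cells had 0 in the 12, 14 and 18 hpf libraries and 31.8 and 33.6 CPM at 20 and 24 hpf, above head mesoderm-like cells at both ages. Epithelial-like cells stood at 0 in 4 of 6 libraries and at 3.42 and 20.9 CPM in the second 18 hpf and 20 hpf libraries. Head mesoderm-like cells alone were higher than NC-like cells by 2.69 (adjusted p = 0.0142), while the merged mesoderm, with cardiac cells, gave 1.34 (adjusted p = 0.12).

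The atypical receptor ackr3b was the gene that NC cells lacked most evenly. NC-like levels ran from 0.537 to 7.83 CPM over the 7 libraries. Epithelial-like cells had 219, 40.4, 107, 113, 186 and 81.2 CPM at 14 hpf, 18 hpf, in the second 18 hpf library and at 20, 24 and 30 hpf, and the unnamed cluster had 212 CPM. Endothelial-like cells had 36.5 to 105 CPM in their 3 libraries and head mesoderm-like cells 59.3, 56.0, 65.4 and 25.2 CPM in their 4. Every one of these values exceeded the highest NC value. Blood-like (0 to 53.5 CPM), neural-like (13.0 to 88.8 CPM) and cardiac mesoderm-like cells (8.60 to 91.4 CPM) overlapped these classes. Its paralogue ackr3a, no member of the set, had 0 to 16 UMIs in a library. In the second 18 hpf library 15 of its 16 UMIs lay in NC-like cells (1.23 CPM). Of these, 11 lay in the 29 cells with at least 2 UMIs of gch2, the pigment gate below.

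**Figure D3:**
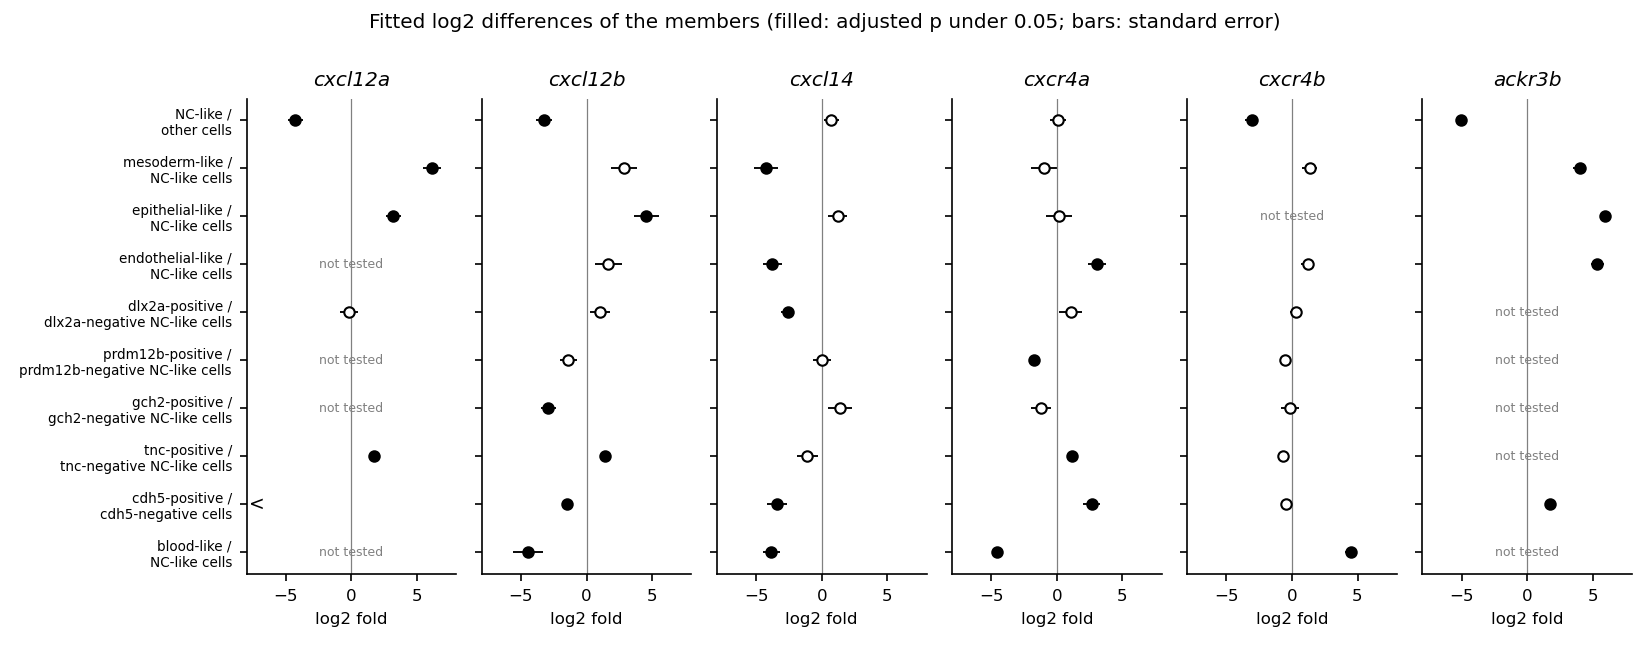
Fitted log2 difference of each gene (columns) in the 10 comparisons of cell groups (rows), with the standard error as a bar. Filled points have an adjusted p under 0.05, and the arrowhead marks cxcl12a at 0 in all cdh5-positive cells, where the fit gives no size. Differences of ackr3b are 4.01, 5.96 and 5.36 for mesoderm-like, epithelial-like and endothelial-like cells against NC-like cells.

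NC-like cells with tnc, which codes for the matrix protein tenascin C, held more of both cxcl12 ligands and of cxcr4a. Cells with at least 2 tnc UMIs numbered 13, 119, 115, 114 and 32 at 18 hpf, in the second 18 hpf library and at 20, 24 and 30 hpf, and most were also dlx2a-positive (105 of 115 at 20 hpf). They had 43.9, 67.8, 171, 295 and 176 CPM of cxcl12b, against 10.7, 37.7, 72.5, 81.3 and 47.3 CPM in tnc-negative NC-like cells. For cxcl12a the tnc-positive levels were 5.49, 8.25, 18.0, 25.6 and 46.5 CPM, against 2.97, 1.69, 3.12, 9.79 and 24.5 CPM. For cxcr4a they were 5.49, 25.3, 141, 181 and 68.6 CPM, against 4.76, 15.0, 86.4, 42.1 and 24.5 CPM. Each of these genes was higher in the tnc-positive cells of 5 of 5 libraries.

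The fitted differences were 1.37 for cxcl12b (SE 0.147, adjusted p = 2.96e-05), 1.75 for cxcl12a (SE 0.255, adjusted p = 5.04e-05) and 1.14 for cxcr4a (SE 0.247, adjusted p = 0.036). In tnc-positive cells 3 of 5 genes tested were higher and none lower, where 7.35% of 6991 genes passed, 3.5% higher and 3.85% lower. Neither cxcl14 (-1.10, adjusted p = 0.589) nor cxcr4b (-0.70, adjusted p = 0.127) passed. All 3 calls were lost with a gate of 3 UMIs (adjusted p = 0.159, 0.311 and 0.238), at the coarser clustering (0.0786, 0.616 and 0.0577) and without the library term (0.734, 1.00 and 1.00 for cxcl12b, cxcl12a and cxcr4a), and that on cxcr4a also with a gate of 1 UMI (0.0738) or without the 18 hpf (0.0990) or 30 hpf library (0.113). Head mesoderm markers moved with the gate in part, summing to 11, 76.3, 105, 152 and 184 CPM in tnc-positive cells, against 10.7, 37.3, 62.5, 125 and 201 CPM in tnc-negative cells. In head mesoderm-like cells they summed to 1494 to 2215 CPM. Of these markers tbx1 was at 0 in NC-like cells of every library and tcf21 at 0 in 6 of 7, while foxc1b, which NC cells also express and which reached 144 CPM, made most of the sum from 14 hpf on. Their part in the result was not tested.

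**Figure D4:**
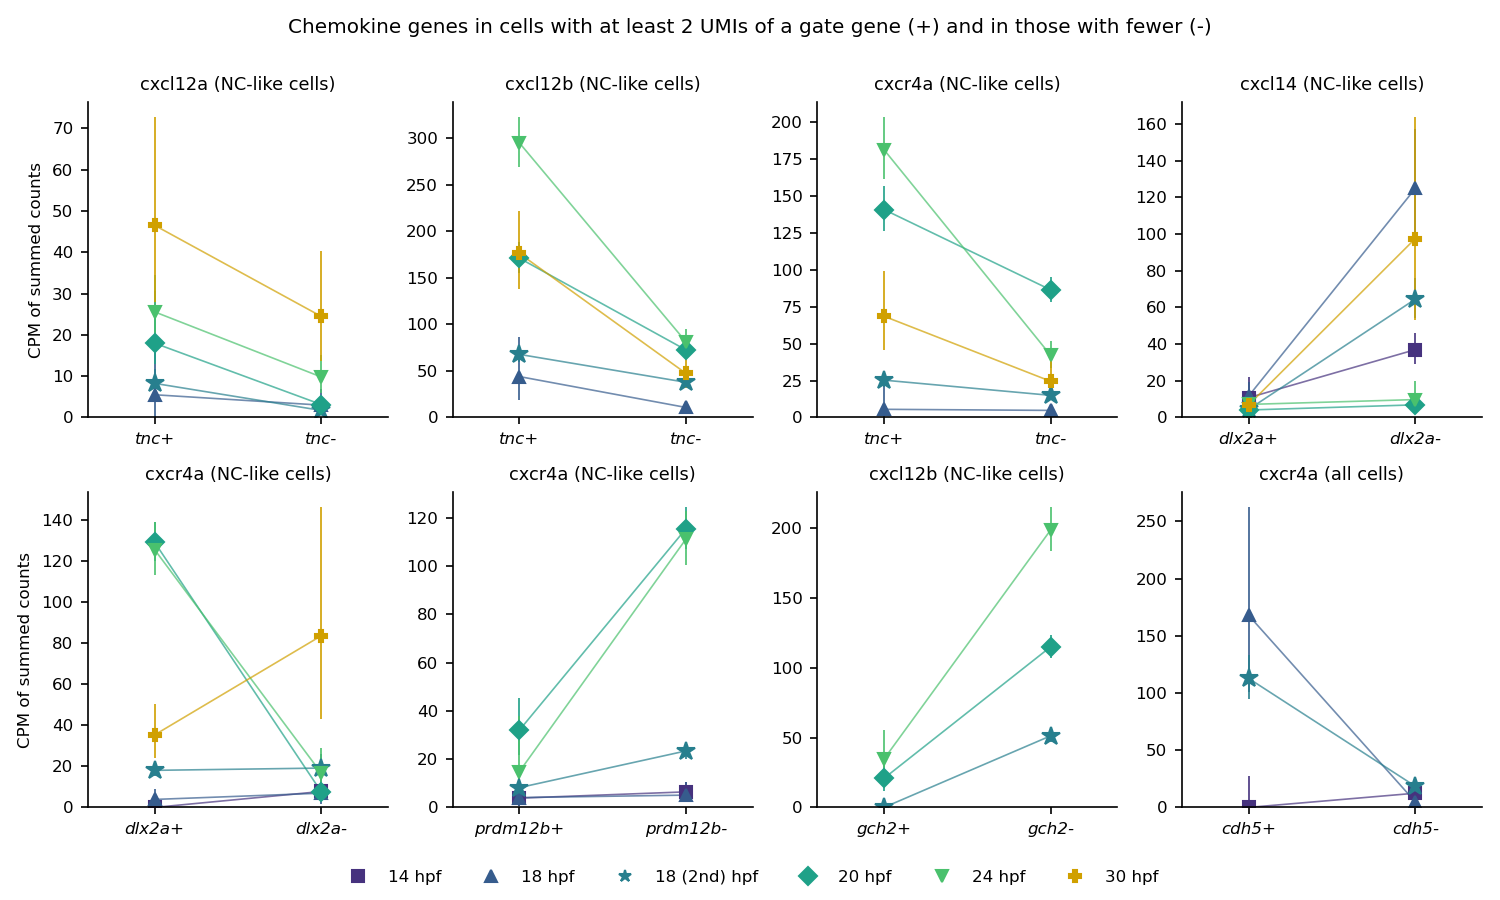
CPM of a chemokine gene in gate-positive cells (left of each panel) and gate-negative cells (right), joined by library, with exact 95% Poisson intervals. In tnc-positive cells cxcl12b stands between 43.9 and 295 CPM and above tnc-negative cells in each of 5 libraries, and in prdm12b-positive cells cxcr4a stands below prdm12b-negative cells in each of 5.

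Cells with at least 2 UMIs of dlx2a, a homeobox gene of arch mesenchyme, held less cxcl14. Their levels were 10.8, 11.7, 4.39, 4.04, 7.08 and 6.83 CPM at 14 hpf, 18 hpf, in the second 18 hpf library and at 20, 24 and 30 hpf, against 36.9, 125, 64.5, 6.85, 9.72 and 97.5 CPM in dlx2a-negative NC-like cells. All 6 libraries agreed in direction, with the narrowest gaps at 20 and 24 hpf. The difference was -2.60 (SE 0.474, adjusted p = 0.0231), the single gene of 5 tested to pass, where 5.63% of 6076 genes passed, 1.76% higher and 3.87% lower. It was lost without the second 18 hpf library (-2.12, adjusted p = 0.116) and without the library term (adjusted p = 0.0897). The epithelial markers, of which 4 to 11 were detected in dlx2a-positive and 1 to 9 in dlx2a-negative cells, summed to 20.0, 12.4, 10.9, 5.80, 8.09 and 7.97 CPM in dlx2a-positive cells, against 21.9, 13.9, 18.7, 47.3, 116.7 and 6.96 CPM. In the second 18 hpf library 0 of the 29 NC-like cells with at least 2 UMIs of gch2, the pigment gate below, were dlx2a-positive. These cells had 78.0 CPM of cxcl14, whereas gch2-positive cells had 5.20 and 0 CPM at 20 and 24 hpf. The part of the epithelial markers and of the gch2-positive cells in the cxcl14 difference was not tested.

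Receptor and ligand did not sort as evenly by dlx2a. For cxcr4a dlx2a-positive cells had 0, 3.89, 18.0, 129, 125 and 35.3 CPM, against 7.75, 6.93, 19.2, 7.54, 16.7 and 83.6 CPM. They were thus far above dlx2a-negative cells at 20 and 24 hpf. In the 4 other libraries they were below them, but with overlapping counting intervals. The difference over libraries was 1.05 (adjusted p = 0.538). For cxcl12b the values were 1.54, 13.2, 53.4, 129, 203 and 69.5 CPM, against 0.456, 15.6, 18.7, 11.7, 66.7 and 279 CPM (1.02, adjusted p = 0.458). That difference passed with a gate of 1 UMI (1.87, adjusted p = 0.0117). The dlx2a-negative group had only 11 cells at 30 hpf, where both genes were higher in it. Receptor cxcr4b differed by 0.30 (adjusted p = 0.729) and cxcl12a by -0.20 (adjusted p = 0.921).

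NC-like cells with prdm12b, a transcription factor gene known from sensory neurons, had less cxcr4a. The prdm12b-positive levels were 3.86, 4.08, 8.20, 32 and 14.8 CPM at 14 hpf, 18 hpf, in the second 18 hpf library and at 20 and 24 hpf, from 44, 31, 142, 48 and 20 cells. The prdm12b-negative levels were 6.45, 5.10, 23.4, 116 and 111 CPM. All 5 libraries agreed in direction, with overlapping counting intervals at 14 and 18 hpf. The difference was -1.73 (SE 0.184, adjusted p = 5.94e-06), against a background of 0.887% of 6986 genes passing, 0.215% higher and 0.673% lower. It was lost without the library term (-1.98, adjusted p = 1.00). For cxcl12b the prdm12b-positive cells had 0, 6.12, 40.3, 19.6 and 0 CPM, against 0.860, 16.7, 51.0, 118 and 191 CPM, lower in 5 of 5 libraries but with an adjusted p of 0.66 (-1.39). Without the second 18 hpf library it passed (-2.93, adjusted p = 0.0381). Ligand cxcl12a, at 0 to 14.8 CPM in prdm12b-positive cells, fell below the count filter. It was lower with no filter (-2.20, adjusted p = 0.000489). Without the 14 hpf (-2.12, adjusted p = 0.0948) or 18 hpf library (-2.04, adjusted p = 0.125) it did not pass. Neither cxcr4b (-0.52, adjusted p = 0.594) nor cxcl14 (0.01, adjusted p = 1.00) passed, so 1 of 4 genes tested was lower and none higher.

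The pigment gate, gch2, codes for GTP cyclohydrolase, the entry step of pteridine synthesis. Its positive cells numbered 29, 35 and 31 in the second 18 hpf library and at 20 and 24 hpf. They had 0, 20.8 and 34.6 CPM of cxcl12b, against 51.2, 115 and 198 CPM in gch2-negative NC-like cells. At 0 UMIs in the second 18 hpf library, the level was at least 15.8-fold lower than in gch2-negative cells. The fitted difference was -2.92 (SE 0.552, adjusted p = 0.00984), the single gene of 4 tested to pass, where 19.1% of 7501 genes passed, 10.7% higher and 8.44% lower. It was lost with a gate of 1 UMI (adjusted p = 0.220) and without the library term (adjusted p = 0.153). Ligand cxcl12a, at 0 to 1.30 CPM in gch2-positive cells, fell below the count filter. It was lower with no filter (-4.32, adjusted p = 9.23e-05) and at the coarser clustering (-5.56, 0.00239). The same held without the second 18 hpf (-3.80, 0.0011) or 24 hpf library (-3.38, 0.0323). With a gate of 1 UMI it did not pass (-1.22, 0.0727).

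For the receptor cxcr4a gch2-positive cells had 33.6, 15.6 and 26.5 CPM, against 17.0, 115 and 116 CPM. They were lower at 20 and 24 hpf and higher in the second 18 hpf library, and the difference of -1.21 (adjusted p = 0.315) passed only without the second 18 hpf library (-2.39, adjusted p = 4.36e-07). In that library gch2-positive cells were the main NC holder of cxcl14 per cell, at 78.0 CPM against 9.78 CPM in gch2-negative cells. At 20 and 24 hpf the values were 5.20 and 0 CPM in gch2-positive cells, against 4.55 and 8.77 CPM. Over libraries the cxcl14 difference was 1.42 (adjusted p = 0.334), and it passed without the 24 hpf library (2.26, adjusted p = 0.0423) and turned negative without the second 18 hpf library (-0.85).

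Cells with at least 2 UMIs of cdh5, which codes for the cadherin of vessel walls, were taken from all cells and numbered 14, 13 and 72 at 14 hpf, 18 hpf and in the second 18 hpf library, of which 10, 12 and 63 were endothelial-like. Their cxcr4a stood at 0, 168 and 113 CPM, against 12.4, 4.85 and 18.5 CPM in cdh5-negative cells. Their ackr3b stood at 22.3, 133 and 113 CPM, against 15.3, 11 and 42.8 CPM. The gate thus found cxcr4a in the 18 hpf libraries, as the endothelial-like clusters did, with most of the cells being the same ones. At 14 hpf the floor of 22.3 CPM lay above the cdh5-negative level, so the 0 gives no order there. The differences were 2.68 for cxcr4a (SE 0.649, adjusted p = 0.00933, 2 of 3 libraries) and 1.73 for ackr3b (SE 0.358, adjusted p = 2.2e-05, 3 of 3 libraries). Of 6 genes tested 2 were higher and 3 lower, where 19.9% of 8229 genes passed, 8.87% higher and 11% lower. The cxcr4a call was lost with DESeq2 (adjusted p = 0.656), with a gate of 1 UMI (0.416), without the library term (0.0945) and without the second 18 hpf library (0.448), and that on ackr3b without the 18 hpf library (1.08, adjusted p = 0.0781) or the library term (0.144).

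No cdh5-positive cell had a cxcl12a UMI, which puts the level at least 14.4-fold below the 34.2 CPM of cdh5-negative cells in the second 18 hpf library and at least 2.51-fold below their 66.6 CPM at 18 hpf. DESeq2 gave cxcl12a an adjusted p of 0.125. For cxcl12b cdh5-positive cells had 37.2, 88.4 and 53.2 CPM, against 74.5, 67.0 and 259 CPM (-1.53, SE 0.315, adjusted p = 1.93e-05, lower in 2 of 3 libraries). That call was lost without the second 18 hpf library (-0.42, adjusted p = 0.811), with DESeq2 (0.248) and without the library term (0.249). Ligand cxcl14 was at 0, 0 and 1.59 CPM, against 27.7, 41.7 and 8.55 CPM (adjusted p = 0.00011). Receptor cxcr4b did not pass (-0.46, adjusted p = 0.52).

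Across age, cxcl12a rose in the NC-like cells of the timeline. It was 0 at 12 and 14 hpf and 3.22, 7.97, 16.8 and 33.3 CPM at 18, 20, 24 and 30 hpf. The slope was 0.37 per hour on the log2 scale (SE 0.0683, adjusted p = 0.0259), the single slope of 6 to pass, where 4.3% of 8712 genes passed, 2.47% higher and 1.84% lower with age. It was lost without the 12 hpf (adjusted p = 0.0765), 14 hpf (0.0625), 18 hpf (0.0553) or 24 hpf library (0.0877) and over all cells (0.0653). For cxcl12b the levels were 0.311, 0.703, 13.9, 105, 177 and 98.9 CPM at 12, 14, 18, 20, 24 and 30 hpf. For cxcr4a they were 0.623, 5.98, 4.83, 104, 104 and 42.1 CPM. Both were highest at 20 or 24 hpf and lower at 30 hpf, which a straight slope does not describe (0.44, adjusted p = 0.266, and 0.32, adjusted p = 0.408). The cxcl12b slope passed without the 30 hpf library (0.75, adjusted p = 0.0488), and both passed with DESeq2 (adjusted p = 0.000229 and 0.0301).

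The second 18 hpf library stood between the 18 and 20 hpf libraries for cxcl12b (47.3 CPM) and cxcr4a (18.2 CPM) in NC-like cells, at more UMIs per cell and another chemistry. After thinning to 5000 UMIs the share of NC-like cells with cxcr4a was 0.452%, 3.32%, 2.34%, 32.9%, 29.4% and 15.4% from 12 to 30 hpf and 7.38% in the second 18 hpf library. The same order in CPM and in thinned shares held for cxcl12b, at 0% at 12 and 14 hpf, 8.59%, 36.3%, 38.9% and 26.9% from 18 to 30 hpf and 16.2% in the second 18 hpf library. Head mesoderm markers in NC-like cells also differed with age, summing to 1.87, 1.41, 10.7, 76.5, 137 and 194 CPM from 12 to 30 hpf. Their part in the slope of cxcl12a was not tested.

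**Figure D5:**
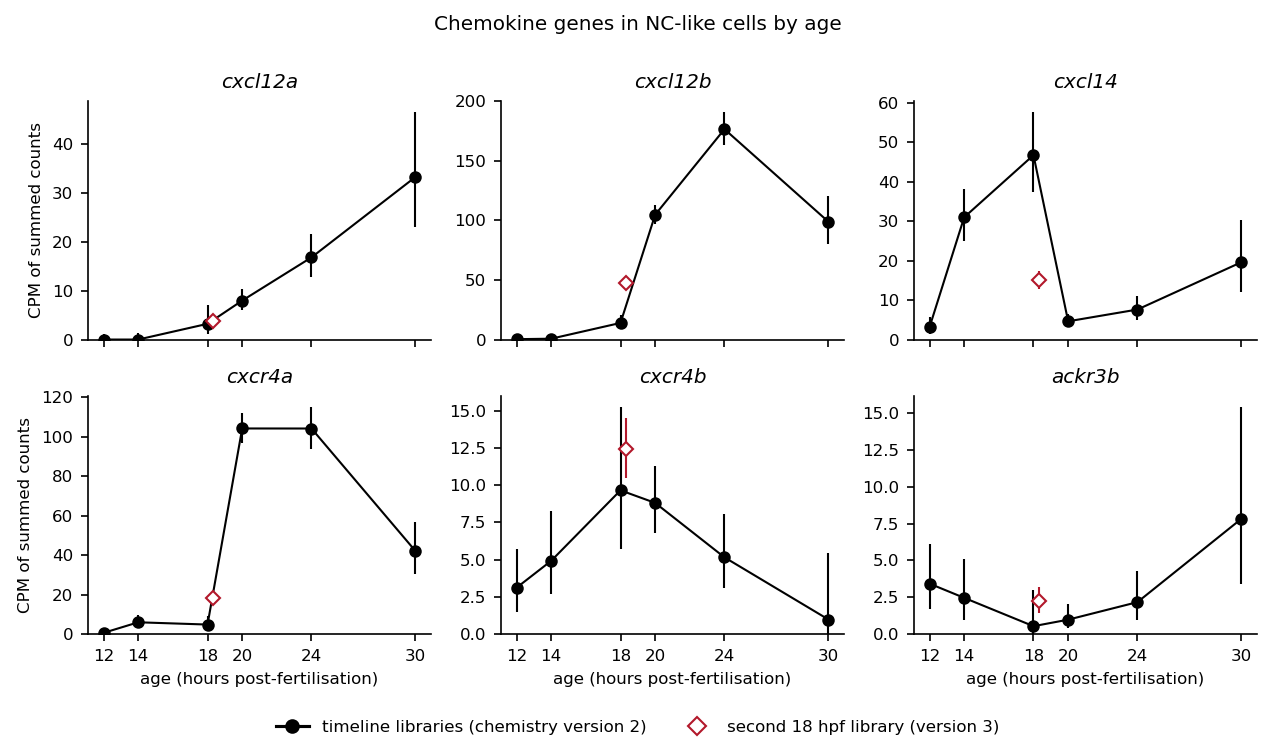
CPM of each gene in NC-like cells by age, with exact 95% Poisson intervals; filled points joined by a line are the 6 timeline libraries and the open diamond is the second 18 hpf library. The cxcr4a level stands at 4.83 CPM at 18 hpf and 104 CPM at 20 hpf, and cxcl14 is highest at 18 hpf (46.7 CPM).

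At 20 and 24 hpf most cxcr4 UMIs of NC-like cells were cxcr4a, and most of those of blood-like cells were cxcr4b. Before 20 hpf NC-like cells held a mixture of both copies. Of the cxcr4a and cxcr4b UMIs in NC-like cells, cxcr4a made 16.7%, 54.8%, 33.3%, 92.2%, 95.3% and 97.7% at 12, 14, 18, 20, 24 and 30 hpf and 59.5% in the second 18 hpf library. The later shares rest on 745 and 63, 384 and 19, and 43 and 1 UMIs of cxcr4a and cxcr4b, the earlier ones on fewer than 32 UMIs per timeline library. In blood-like cells cxcr4a made 0%, 0%, 0.0980%, 1.47% and 4.76% at 14 hpf, 18 hpf, in the second 18 hpf library and at 20 and 24 hpf. In endothelial-like cells it made 90.5% and 78.5% in the 18 hpf and second 18 hpf libraries. The shares of the ligand copies also differed between tissues. Copy cxcl12a made 58.5% to 74.6% of cxcl12 UMIs in the head mesoderm-like cells of 4 libraries, against 0% to 29.7% in the epithelial-like cells of 6 and 7.07% to 25.2% in NC-like cells from 18 hpf on. Reads that the copies may share were not examined.

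From 20 hpf on, many NC-like cells held ligand and receptor together. At 20 hpf and 5000 UMIs per cell, 127 of 353 NC-like cells (36.0%) held a receptor UMI, 106 of them only cxcr4a, 11 only cxcr4b and 10 both. Of these 127 cells 64 also held a cxcl12 UMI, against 70 of the 226 cells without cxcr4. The counts were 45 of 80 cells with cxcr4 against 64 of 182 without at 24 hpf, and 9 of 13 against 20 of 65 at 30 hpf. Before 20 hpf in the timeline, at 5000 UMIs per cell, no cell with cxcr4 held a cxcl12 UMI. These were 0 of 2, 0 of 14 and 0 of 8 cells at 12, 14 and 18 hpf. At 12 and 14 hpf 0 NC-like cells held cxcl12 at that depth, so no overlap could be seen. With all UMIs of a cell, 2 of 24 cells with cxcr4 held cxcl12 at 18 hpf. In the second 18 hpf library, at 5000 UMIs, 12 of 48 did, against 63 of 372 cells without cxcr4. Whether ligand and receptor occur together more often than their levels alone would give was not tested. At 24 hpf 30.9% of NC-like cells held a receptor, 77 cells only cxcr4a, 3 only cxcr4b and 1 only ackr3b. At 30 hpf 20.5% did, and before 20 hpf 3.17%, 6.64% and 7.03% at 12, 14 and 18 hpf and 12.9% in the second 18 hpf library. Cells with ackr3b alone made 5 of the 7 receptor-bearing NC-like cells at 12 hpf.

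Of a list of 27 signalling partners of these receptors, 22 were in both tables. In endothelial-like cells 9 of 15 tested were higher and 1 lower than in NC-like cells (all genes 14.5% higher and 13.3% lower), with a median of 0.85 on the log2 scale against -0.07 for all genes. Among them were elmo1 (4.06, adjusted p = 3.47e-10) and rac2 (4.33, adjusted p = 1.76e-09), both of which act on the actin skeleton, arrb2b (2.70, adjusted p = 1.17e-06), an arrestin, and gnai2a (2.21, adjusted p = 6e-07), an inhibitory G protein subunit. In blood-like cells 8 of 16 were higher and 3 lower (all genes 18.9% and 20.4%), with rac2 at 6.92 and the leukocyte kinase gene pik3cg at 6.88. In NC-like cells against all other cells, 3 of 15 were higher and 8 lower (all genes 15.7% and 16.3%), with rac2 at -5.37 (adjusted p = 2.35e-05) and mif, a cytokine that can bind Cxcr4, at 1.30 (adjusted p = 0.000823). In the dlx2a, prdm12b and age comparisons 0 of 11, 0 of 12 and 0 of 16 passed (all genes 5.63%, 0.887% and 4.3%). In the tnc comparison 1 of 12 passed, which was lower (all genes 7.35% either way). These counts lie near the shares over all genes. In gch2-positive cells 2 of 15 were higher and 1 lower (all genes 10.7% and 8.44%), the G protein subunit genes gnai3 (2.87, adjusted p = 0.00541) and gnb1a (1.65, adjusted p = 0.00197) and, lower, mif (-0.85, adjusted p = 0.0376). Mesoderm-like, epithelial-like and cdh5-positive cells had 3 of 11, 4 of 12 and 5 of 16 higher and 1 lower each. Over all genes 10.2%, 17.7% and 8.87% were higher and 11%, 16.3% and 11% lower. Of 28 other chemokine ligands and receptors 10 were in both tables, and at most 2 passed the count filter in any comparison. One of these, cxcl18b, was higher in NC-like cells than in other cells (1.22, adjusted p = 0.0357), and cxcr3.2, a receptor of macrophages, was higher in blood-like cells (10.95, adjusted p = 2.94e-08).

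Over 35 profiles of a class in a library, and among 9843 genes, the genes most like each member in log2 CPM were egfl6 for cxcl12a (Pearson r = 0.79), krt18a.1 for cxcl12b (0.90), zgc:92630 for cxcl14 (0.76), tgfbi for cxcr4a (0.73), serpina10a for cxcr4b (0.75) and cox4i2 for ackr3b (0.81). The next were cnmd (0.78), pcdh7b (0.86), rgcc (0.68), hey1 (0.72), copz1 (0.74) and tmem108 (0.77) in the same order of members. These profiles share libraries and depth, so the values are a description.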

How the data were processed

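Cells of 7 libraries were analysed from 2 deposited tables of raw UMI counts per gene and cell. The authors mapped reads to GRCz11 with CellRanger (version not given in the sources used here), aggregated the 6 timeline libraries, removed low-quality cells and worked on in Seurat v3. Whether aggregation evened out depth is not stated. Cells were given to libraries by the barcode suffix, taken to be the labels' sample number. The members and lists were chosen with earlier results of these data known. The named genes are all 6 members whatever their values, other pathway genes only where they passed a test, and the genes most like each member.

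A filter on cells (500 genes or more, mitochondrial share of 10% or less) removed 0 cells. Doublets were called with Scrublet (1 to 9 per library) and kept. Clusters came from 2000 variable genes without chemokine genes, 20 components, 20 neighbours and Leiden resolution 0.8 (scanpy 1.11.5). A class needed 3 markers from its list at 2-fold or more. Counts were summed per library and cell group where both groups had at least 10 cells, and tested in edgeR 4.0.16 (R 4.3.3) by quasi-likelihood with TMM scaling, filterByExpr, a library term and Benjamini-Hochberg adjustment at 0.05. Positive cells had at least 2 UMIs of a gate gene, taken among NC-like cells except for cdh5 (all cells). Levels are CPM with exact Poisson 95% intervals, and shares have Clopper-Pearson intervals. To compare shares, cells were thinned to 5000 UMIs, leaving out 2 cells at 14 hpf and 1 at 18 hpf below that depth. The fit was tested on simulated data. Alternatives were DESeq2 1.42.0, its size factors, no count filter, no library term, removal of doublet calls, Leiden resolutions 0.5 and 1.2, gates of 1 and 3 UMIs, and leaving out each library. Blood against NC, the head and cardiac mesoderm alone, the unnamed cluster counted as epithelium and the second 18 hpf library in the age trend were added after seeing the data. Positions in the genome and sequences were not used here. The level of 1 marker gene, and a marker sum that rests on it, are not reported here.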

Additional observations from a re-analysis of the deposited data

How the results depend on the processing

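The comparisons of cell groups were paired within libraries by the library term, and the age trend, with 1 library per age, could not be. Of the tests of single members under the alternatives, 634 kept their direction and side of the threshold, 44 lost a call, 16 gained one and 28 turned round, each of the last in a result that did not pass. In every case below the cause was not tested. With no filter on low counts the number of genes that passed was 5217 (2407 as reported) for NC-like against other cells, 3270 (1350) for mesoderm-like, 4453 (2243) for epithelial-like, 3239 (1983) for endothelial-like and 5309 (3032) for blood-like against NC-like cells, 1405 (342) for dlx2a, 323 (62) for prdm12b, 2368 (1433) for gch2, 849 (514) for tnc, 2812 (1641) for cdh5 and 573 (375) for age. Without the library term it was 930, 641, 1435 and 1074 for NC-like, mesoderm-like, epithelial-like and endothelial-like cells, 2 for dlx2a, 710 for gch2, 2 for tnc, 431 for cdh5 and 0 for prdm12b (edgeR, with 88 genes at an unadjusted p under 0.05). DESeq2 gave 1186 for endothelial-like cells, 29 for prdm12b, 272 for tnc, 713 for cdh5 and 769 for age. At Leiden resolution 1.2 the count was 906 for endothelial-like cells and 214 for dlx2a. A gate of 1 UMI gave 35 for prdm12b and a gate of 3 UMIs 97. Head mesoderm-like cells alone gave 274 and cardiac mesoderm-like cells alone 2586. Leaving out 1 library at a time gave 1357 to 2958 for NC-like, 495 to 1922 for mesoderm-like, 1326 to 2347 for epithelial-like, 566 to 3265 for endothelial-like and 1533 to 3538 for blood-like cells, and 3 to 660 for dlx2a, 17 to 108 for prdm12b, 875 to 2141 for gch2, 187 to 581 for tnc, 458 to 1521 for cdh5 and 83 to 437 for age.

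Log2 differences turned round as follows. For cxcr4a in NC-like against other cells it was -0.12 with DESeq2, -0.56 at resolution 1.2 and -0.42 to 0.48 when 1 library was left out. For cxcr4a in epithelial-like cells it was -0.058 with no filter, -0.037 without doublet calls and -0.68 to 0.69 by library left out. For cxcl12a by dlx2a it was 0.21 with DESeq2, 0.38 without the library term and -0.57 to 0.14 by library left out, and for cxcr4b by dlx2a -0.18 at resolution 0.5. For cxcl14 by prdm12b it was -0.021 with no filter, -0.22 without the library term, -0.00015 without doublet calls, -0.27 with a gate of 3 UMIs and -0.26 to 0.54 by library left out. By library left out it ran from -0.85 to 2.26 for cxcl14 and from -1.07 to 0.68 for cxcr4b by gch2. The slope with age was 0.0085 for cxcl14 and 0.094 for cxcr4b over all cells, and -0.085 to 0.028 and -0.11 to 0.069 by library left out. With cardiac mesoderm-like cells alone cxcr4b gave -0.91. Classes of 10 to 16 cells in a library limit how finely any level can be read.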
